A study of Mus musculus with 5 samples.

Results

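*Fkbp5*, *Tsc22d3*, *Zbtb16*, *Per1*, *Klf9*, *Sgk1* and *Errfi1* are 7 of the 27998 genes counted in 5 single-cell RNA sequencing libraries of the mouse mammary gland. They were chosen by symbol as genes that the progesterone receptor and the glucocorticoid receptor are both known to induce. The rule itself used no measured value, but the choice was made with earlier results of these data known. The 2 libraries from mice given progesterone were compared with the 3 from mice without it, in luminal, basal and fibroblast cells.

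All mice were ovariectomized BALB/cj females, treated for 1 week from 20 weeks after surgery and labelled 30 weeks of age. Each group gave 1 library. OVX received the vehicle, DMSO, and OVX_E2 received 17β-estradiol at 1 µg per animal daily. OVX_E2_P4 was given, beside the same 17β-estradiol, 0.1 mg of progesterone per animal daily. OVX_E2_PBDE and OVX_E2_P4_PBDE had these injections and, in place of DMSO food, food with polybrominated diphenyl ethers (PBDEs, flame retardants), with 7.1 mg/kg of BDE-47, 0.4 mg/kg of BDE-100 and 0.9 mg/kg of BDE-153. No removal of the adrenal glands is described for any group, so corticosterone of the mice's own is taken to be present throughout. Mammary glands were taken a day after the last injection. The number of mice behind a library was not given in the sources used here.

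The progesterone receptor and the glucocorticoid receptor are steroid-activated transcription factors of one family, and they recognize the same DNA element, a pair of inverted half-sites. Genes near such elements can therefore answer to either hormone, according to which receptor a cell makes. In the mammary epithelium the progesterone receptor is known from hormone-sensing luminal cells, which pass the signal on to neighbours through secreted factors, while the glucocorticoid receptor is present in most cell types.

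A barcode marks the droplet that held a cell, and captured transcripts were counted by their unique molecular identifiers (UMIs). A level is a gene's share of all UMIs in the cells of one type, given as counts per 1000000 UMIs (CPM). Values in parentheses after a level or a ratio are exact 95% intervals that cover counting error only. With 1 library per group no difference between treatments could be tested against the spread between animals, and library and treatment cannot be told apart. Progesterone was addressed by 2 comparisons that share no library, OVX_E2_P4 with OVX_E2 and OVX_E2_P4_PBDE with OVX_E2_PBDE. A gene was called when its ratio was at least 1.5 in the same direction in both, among genes with at least 50 UMIs over the 2 libraries of each.

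The libraries held 2233 to 3536 barcodes and 19982067 to 42012988 UMIs, and any 2 libraries shared 3 to 15 barcodes. Clusters were named from marker genes, and the types compared held 2530 hormone-sensing luminal-like (L-Hor-like), 1058 alveolar luminal-like (L-Alv-like), 421 basal-like and 7254 fibroblast-like cells. Own markers stood above those of the other types, with L-Hor markers summing to 5538 to 7710 CPM in L-Hor-like cells and to at most 1109 CPM elsewhere. The margin was not wide throughout. In OVX, fibroblast markers summed to 2570 CPM in L-Hor-like cells, against 5538 CPM of L-Hor markers, and to 2731 CPM in basal-like cells, against 16014 CPM of basal markers. The basal-like cells of the libraries with PBDEs also held L-Alv markers, at 1435 and 1604 CPM against 237 to 378 CPM in the other 3. OVX had no L-Alv-like cluster but a mixed luminal cluster of 195 cells, so the alveolar values come from 4 libraries.

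None of the 7 genes was called with progesterone in any of the 4 cell types, in either direction. In L-Hor-like cells, 6 of the 7 reached the UMI minimum and 0 were higher and 0 lower, while of all 8594 genes tested 0.663% were higher and 0.628% lower. In L-Alv-like cells, again 6 reached it and 0 were called, against 0.478% of genes higher and 0.531% lower. In basal-like cells only *Klf9*, *Sgk1* and *Errfi1* reached it, and 0 were called, against 0.633% higher and 0.532% lower. In fibroblast-like cells all 7 reached it and 0 were called, against 1.29% higher and 0.493% lower. With background shares this small, 0 of 3 to 7 genes does not set the members apart from other genes. The median ratio of the members that reached the minimum was 0.866 to 1.04 over the types and comparisons, beside 0.931 to 0.995 for all genes tested.

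*Klf9* stood lower with progesterone than without it in each of the 4 cell types, although in L-Hor-like cells this order was lost under 2 other settings. Both libraries with progesterone lay below every library without it for *Klf9* in L-Hor-like, L-Alv-like, basal-like and fibroblast-like cells. For L-Alv-like cells this means only 2 libraries without progesterone, since OVX had no such cluster. In basal-like cells 88.4 CPM in OVX_E2_P4_PBDE lay within counting error of 92.5 in OVX_E2_PBDE. In L-Hor-like cells 84.9 CPM in OVX_E2_P4 likewise lay within counting error of 86.4 in OVX_E2_PBDE. Of the genes with at least 50 UMIs, 17.0% lay below in this way in the L-Hor-like type and 19.7% in the L-Alv-like. The share was 10.7% in the basal-like and 16.4% in the fibroblast-like type, so in a single type this order is common. In all 4 types together 31 of 3656 genes did so, or 0.848%. When cells were removed by Scrublet score and not by multiplet cluster, *Klf9* in L-Hor-like cells had 83.5 CPM in OVX_E2_P4 against 75.1 in OVX_E2_PBDE, and with equal weight of cells 87.0 against 81.2, so it then kept the order in the other 3 types but not in this one. *Tsc22d3* in L-Hor-like cells was the other member below in this way. For the opposite order the shares were 4.03%, 11.6%, 3.95% and 9.31% of genes in the same sequence of types, and 0 members showed it. This comparison of orders was added after the values had been seen.

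**Figure D1:**
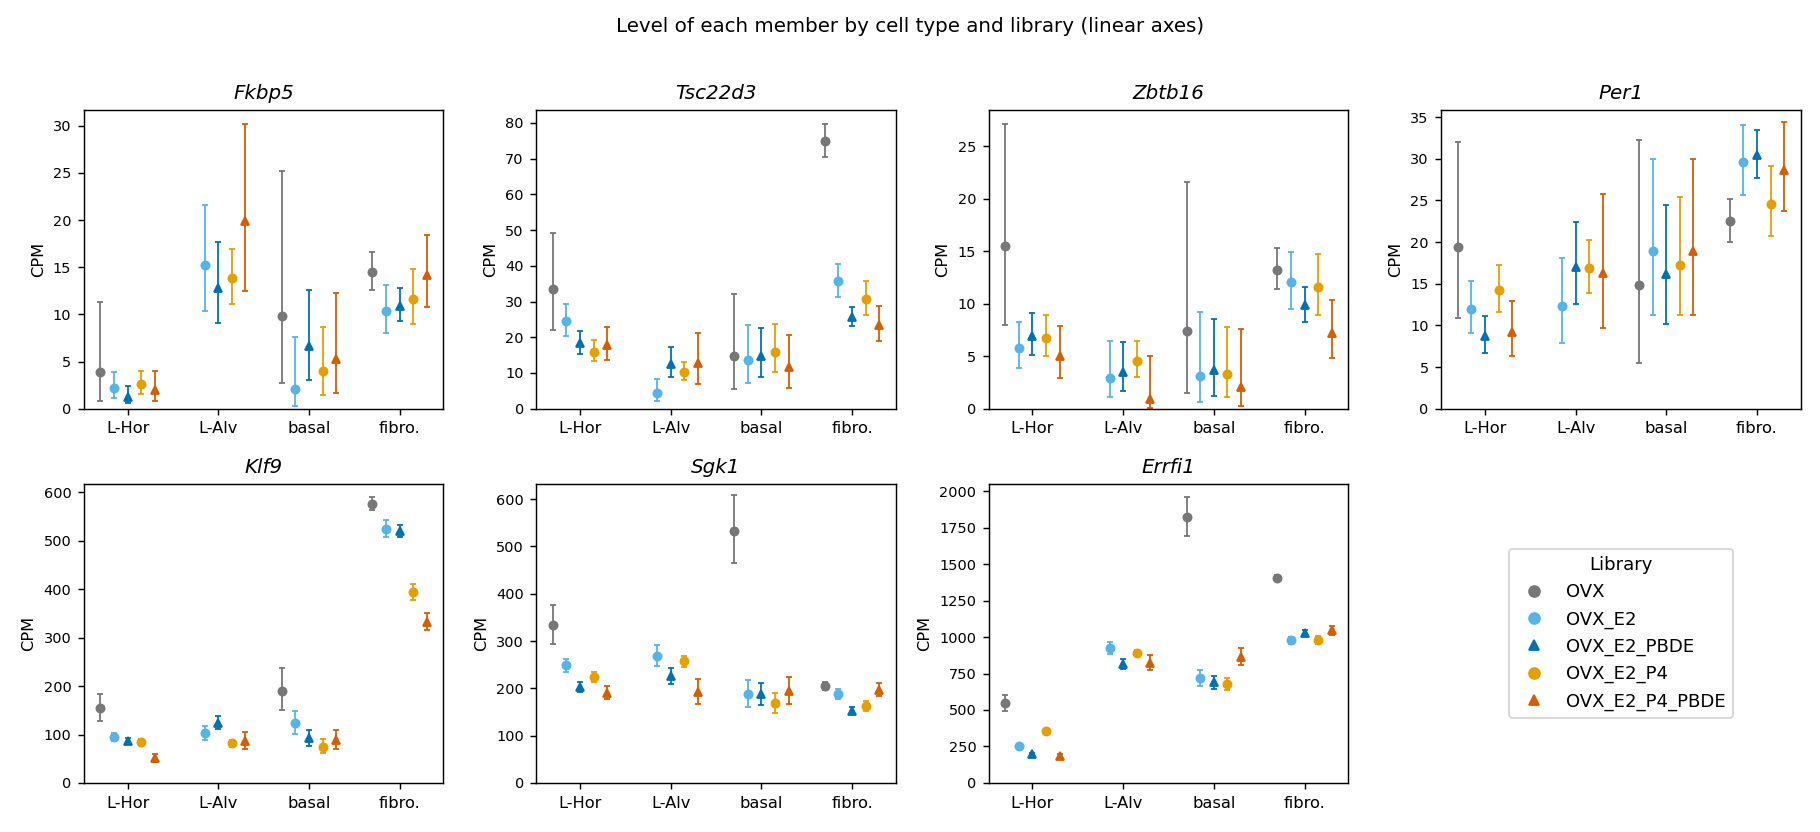
Level of each gene (CPM, linear axes) in L-Hor-like, L-Alv-like, basal-like and fibroblast-like cells, 1 point per library with its exact 95% Poisson interval. The 2 libraries with progesterone (orange) lie below the others for *Klf9* in each type. This order is lost in L-Hor-like cells with Scrublet calls or equal weight of cells. In basal-like cells OVX_E2_P4_PBDE and OVX_E2_PBDE differ by less than counting error, as do OVX_E2_P4 and OVX_E2_PBDE in L-Hor-like cells. OVX (grey) stands above the others for *Errfi1* and *Sgk1* in basal-like cells and for *Tsc22d3* in fibroblast-like cells.

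*Fkbp5* (ENSMUSG00000024222, GRCm38 chromosome 17, 28399094 to 28517527, minus strand) encodes FKBP51, a co-chaperone on Hsp90 that lowers the hormone affinity of the glucocorticoid and progesterone receptors and so closes a feedback loop. It was scarce in L-Hor-like cells, at 3.88 CPM in OVX, 2.19 in OVX_E2 and 1.26 in OVX_E2_PBDE without progesterone, and 2.57 in OVX_E2_P4 and 1.95 in OVX_E2_P4_PBDE with it, from 3 to 19 UMIs. L-Alv-like cells had 15.2, 12.8, 13.8 and 19.9 CPM in the 4 libraries from OVX_E2 on, and fibroblast-like cells had 10.4 to 14.5 CPM. In every library the interval in L-Hor-like cells lay below that in fibroblast-like cells. Endothelial-like cells had 19.6 to 42.8 CPM from 4 to 14 UMIs. With progesterone the level in L-Alv-like cells was 0.909 (0.599 to 1.41) times that without it in the absence of PBDEs, and 1.55 (0.873 to 2.70) times in their presence. In fibroblast-like cells the ratios were 1.12 (0.784 to 1.59) and 1.30 (0.944 to 1.78). Each of these intervals spanned 1, and none reached a doubling in fibroblast-like cells. They cover counting error only, so an effect of that size is not excluded.

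*Tsc22d3* (ENSMUSG00000031431, chromosome X, 140539528 to 140600659, minus strand) encodes GILZ, a leucine zipper protein that mediates anti-inflammatory effects of glucocorticoids. In fibroblast-like cells its level was 75.1 CPM in OVX, 35.7 in OVX_E2 and 25.8 in OVX_E2_PBDE without progesterone, and 30.7 in OVX_E2_P4 and 23.4 in OVX_E2_P4_PBDE with it. OVX was the highest library, and the levels with and without progesterone overlapped among the other 4. The progesterone ratios there were 0.861 (0.703 to 1.05) and 0.910 (0.717 to 1.14). L-Hor-like cells had 33.6, 24.5, 18.4, 16.0 and 17.8 CPM in the same order of libraries, with ratios of 0.653 (0.503 to 0.847) and 0.967 (0.706 to 1.31). The lowest level among the libraries without progesterone was thus close to the higher of those with it. In L-Alv-like cells OVX_E2 had 9 UMIs, or 4.42 CPM, and the other 3 libraries 10.2 to 12.7 CPM, so the ratio of 2.31 (1.15 to 5.28) without PBDEs rested on the scarcity in OVX_E2, and with PBDEs the ratio was 1.02 (0.506 to 1.93). Endothelial-like cells, at 109 to 184 CPM, and hematopoietic-like cells, at 57.2 to 113 CPM, had more *Tsc22d3* than any epithelial type. In fibroblast-like cells endothelial markers summed to 6.26 CPM in OVX and 9.99 to 14.7 CPM in the other libraries, and hematopoietic markers to 85.5 CPM in OVX and 54.1 to 158 CPM in the others. Their part in the level of *Tsc22d3* was not tested.

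*Zbtb16* (ENSMUSG00000066687, chromosome 9, 48654297 to 48836222, minus strand) encodes PLZF, a zinc finger transcriptional repressor that progestins and glucocorticoids induce in uterine stroma. It was sparse in alveolar and basal cells, at 1 to 30 UMIs a library. In fibroblast-like cells it had 13.2 CPM in OVX, 12.0 in OVX_E2 and 9.85 in OVX_E2_PBDE without progesterone, and 11.6 in OVX_E2_P4 and 7.23 in OVX_E2_P4_PBDE with it. The ratios with progesterone were 0.964 (0.684 to 1.35) and 0.734 (0.474 to 1.10). In L-Hor-like cells the levels were 15.5 CPM in OVX from 12 UMIs and 5.01 to 6.89 CPM in the others, with ratios of 1.17 (0.728 to 1.92) and 0.727 (0.399 to 1.27). A doubling of *Zbtb16* lies outside these 4 intervals. They cover counting error only, so an effect of progesterone of that size is not excluded. Basal-like cells had an interval without PBDEs of 0.205 to 6.78, which held a doubling by counting error alone.

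*Per1* (ENSMUSG00000020893, chromosome 11, 69095217 to 69109960, plus strand) encodes a repressor of the circadian clock that glucocorticoids induce acutely. Its level in fibroblast-like cells was 22.5 CPM in OVX, 29.6 in OVX_E2 and 30.5 in OVX_E2_PBDE without progesterone, and 24.6 in OVX_E2_P4 and 28.7 in OVX_E2_P4_PBDE with it. The 3 epithelial types ranged from 8.71 to 19.4 CPM. The 8 progesterone ratios of *Per1* ran from 0.831 (0.663 to 1.04) in fibroblast-like cells to 1.37 (0.883 to 2.21) in L-Alv-like cells, both without PBDEs, and every interval held 1. The time of day of collection was not given in the sources used here.

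*Klf9* (ENSMUSG00000033863, chromosome 19, 23141226 to 23168134, plus strand) encodes a Krüppel-like transcription factor that interacts with the progesterone receptor in the uterus and is induced by glucocorticoids in many tissues. Fibroblast-like cells had the most, at 577 CPM in OVX, 525 in OVX_E2 and 520.0 in OVX_E2_PBDE without progesterone, and 395 in OVX_E2_P4 and 333 in OVX_E2_P4_PBDE with it, from 1334 to 7925 UMIs. The 3 levels without progesterone lay close together and well above both levels with it. The ratios were 0.751 (0.712 to 0.793) without PBDEs and 0.640 (0.603 to 0.678) with them, and only the second was past 1.5 times lower. At least 1 UMI of *Klf9* was seen in 857 of 936 fibroblast-like cells of OVX_E2 and in 758 of 947 of OVX_E2_P4, at median depths of 6640.5 and 5585 UMIs a cell. The 5% of cells with the most *Klf9* held 14.7% to 17.5% of its UMIs in these libraries, so a few cells did not carry the level.

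Fibroblast clusters with *Pi16*, a marker of adventitial fibroblasts, among their 10 leading genes (the *Pi16* clusters) and the other fibroblast clusters were also compared apart. This split was chosen after seeing the data. In OVX_E2_PBDE it pooled clusters of 698 cells, led by *Sfrp4*, and 641 cells, led by *Ccl2*. OVX_E2_P4_PBDE had a single such cluster, of 553 cells. *Klf9* was lower with progesterone in both, at 505 against 583 CPM without PBDEs and 358 against 563 CPM with them in the *Pi16* clusters, and at 269 against 424 and 293 against 414 CPM in the others. The ratios were 0.867 (0.812 to 0.924) and 0.636 (0.591 to 0.683) in the former and 0.636 (0.577 to 0.701) and 0.709 (0.639 to 0.786) in the latter.

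In L-Hor-like cells *Klf9* had 154 CPM in OVX, 94.9 in OVX_E2 and 86.4 in OVX_E2_PBDE without progesterone, and 84.9 in OVX_E2_P4 and 50.9 in OVX_E2_P4_PBDE with it. OVX_E2_P4 and OVX_E2_PBDE differed there by less than counting error, and the ratios were 0.894 (0.793 to 1.01) and 0.589 (0.497 to 0.696). When multiplet clusters were kept the second ratio was 0.759. This brought the L-Hor-like cells from 608 to 878 in OVX_E2_PBDE and from 592 to 1097 in OVX_E2_P4_PBDE. Fibroblast markers in L-Hor-like cells were also lower with progesterone, summing to 2570 CPM in OVX, 1702 in OVX_E2 and 1648 in OVX_E2_PBDE, and to 1108 in OVX_E2_P4 and 1263 in OVX_E2_P4_PBDE. In L-Alv-like cells they summed to 1047 and 1082 CPM without progesterone and 772 and 1118 with it, and in basal-like cells to 2731, 1321 and 939 CPM without it and 1102 and 864 with it. Their part in the epithelial levels of *Klf9*, a gene most abundant in fibroblast-like cells, was not tested. L-Alv-like cells had 103 and 125 CPM without progesterone, in OVX_E2 and OVX_E2_PBDE, and 81.8 and 87.0 CPM with it. The ratios of 0.797 (0.679 to 0.940) and 0.699 (0.552 to 0.878) both lay below 1. Basal-like cells had 189.8, 123 and 92.5 CPM without progesterone and 75.2 and 88.4 CPM with it. Of the basal ratios, 0.610 (0.467 to 0.797) lay below 1 and 0.956 (0.717 to 1.27) spanned it, the latter in the 2 libraries whose basal-like cells held luminal markers. The part of these markers in the basal ratio was not tested.

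**Figure D2:**
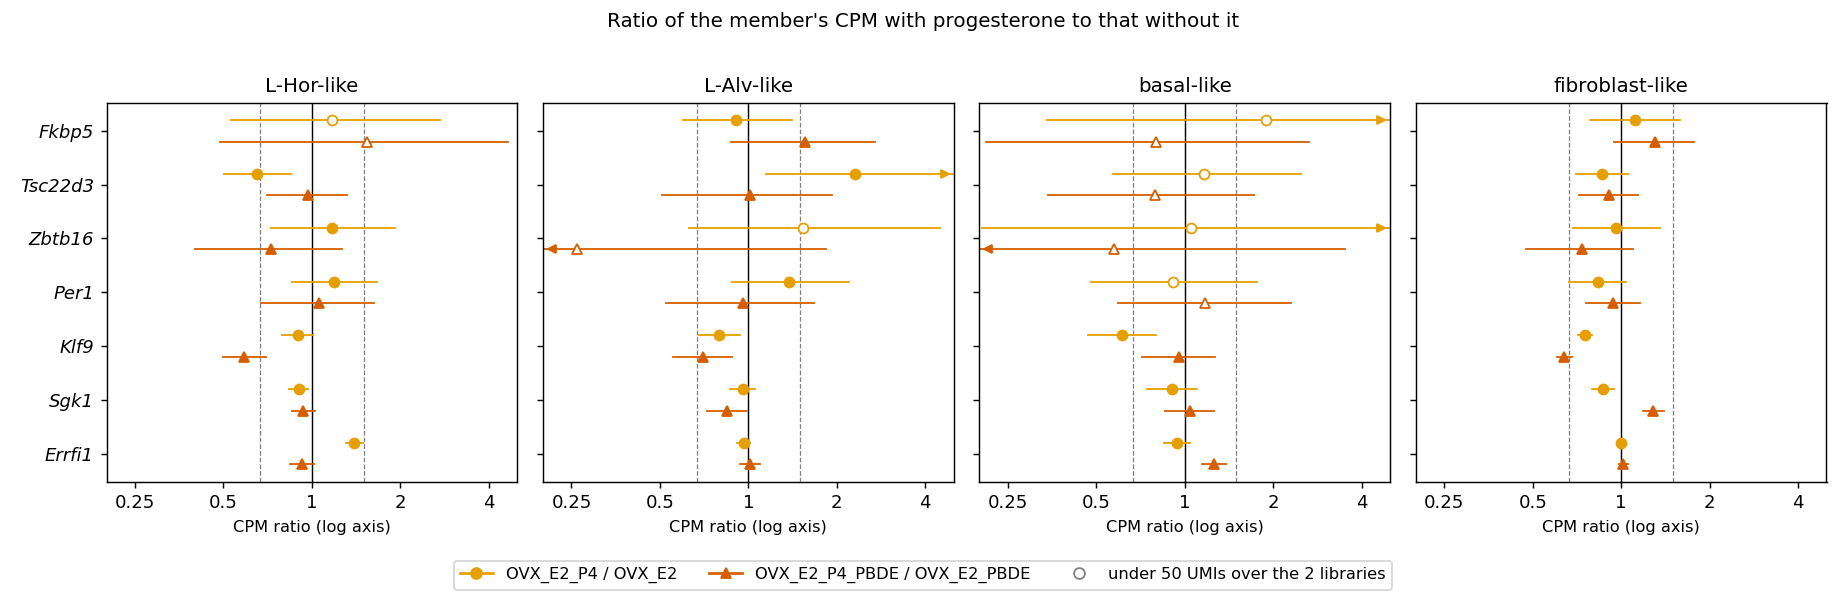
Ratio of each gene's CPM with progesterone to that without it (log axis) in the 4 cell types, with exact 95% intervals, for the comparison without PBDEs (circles) and with PBDEs (triangles), where arrowheads mark intervals that run past the axis. Dashed lines mark 1.5 times higher and lower, and open symbols mark comparisons under 50 UMIs. *Klf9* lies left of 1 in every panel, and no gene is past the same dashed line with both filled symbols.

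*Sgk1* (ENSMUSG00000019970, chromosome 10, 21882184 to 21999903, plus strand) encodes a kinase that raises sodium channel activity by phosphorylating the ubiquitin ligase Nedd4-2. In 1 of its 6 start regions it carries the element of these receptors, which is why that sequence is shown, beside that of *Klf9*. With 6 regions *Sgk1* also had more windows to search than any other member. RefSeq start regions (GRCm38.p6), 250 bases before to 50 after a start, were found for 6 of the 7 genes, 15 regions in all, but not for *Zbtb16*. The letters GNACANNNTGTNC, which read the same on both strands, were in 1 of the 15, upstream of a start of *Sgk1*, and in 0.475% of all 32851 regions. The half-site, AGAACA on one strand and TGTTCT on the other, was in 4 of the 15, 3 of *Sgk1* including the region of the full element and 1 of *Tsc22d3*, and in 19.0% of all regions. The 250 bases before the start are printed 5′ to 3′ on the gene's strand for *Sgk1* (chr10:21993640-21993889) and *Klf9* (chr19:23140976-23141225). For *Sgk1* the 15 bases of the element are in capitals, and a separate half-site 242 bases before the start is left in lower case. *Klf9* has no match to capitalize. For *Tsc22d3* only the bases around a half-site are printed, with the half-site, 185 bases before a start, in capitals.
Sgk1: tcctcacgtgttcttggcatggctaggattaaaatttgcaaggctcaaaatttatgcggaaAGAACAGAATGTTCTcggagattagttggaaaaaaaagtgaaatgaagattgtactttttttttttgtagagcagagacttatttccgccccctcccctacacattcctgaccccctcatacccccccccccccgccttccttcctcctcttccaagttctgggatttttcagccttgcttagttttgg
Klf9: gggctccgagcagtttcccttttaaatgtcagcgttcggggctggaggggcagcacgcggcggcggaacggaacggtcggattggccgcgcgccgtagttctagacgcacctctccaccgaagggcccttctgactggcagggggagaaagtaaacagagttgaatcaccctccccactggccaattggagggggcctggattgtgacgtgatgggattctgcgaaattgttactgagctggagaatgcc
Tsc22d3: attcgacaTGTTCTaagttctg
The element of *Sgk1* begins 189 bases before the start and is a perfect inverted repeat of the half-site. A match of letters does not show binding, the absence of one in these windows says nothing about elements farther away, and the 3′ libraries do not tell which start a transcript used.

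*Sgk1* differed little with progesterone in the epithelium. L-Hor-like cells had 334 CPM in OVX, 248 in OVX_E2 and 204 in OVX_E2_PBDE without progesterone, and 224 in OVX_E2_P4 and 191 in OVX_E2_P4_PBDE with it, with ratios of 0.902 (0.838 to 0.972) and 0.936 (0.854 to 1.03). L-Alv-like cells had 268, 226, 257 and 191 CPM in the 4 libraries from OVX_E2 on, with ratios of 0.956 (0.868 to 1.06) and 0.847 (0.722 to 0.991). Basal-like cells had 532 CPM in OVX and 169 to 195 CPM in the rest, and both ratios spanned 1, at 0.901 (0.741 to 1.10) and 1.04 (0.857 to 1.26). The intervals in the luminal types all ended below 1.1, so counting error alone does not reach an increase of 1.5 times between these libraries. They do not cover differences between libraries or animals, so an effect of progesterone of that size is not excluded.

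In fibroblast-like cells the ratios of *Sgk1* lay on opposite sides of 1. The levels were 205 CPM in OVX, 188 in OVX_E2 and 153 in OVX_E2_PBDE without progesterone, and 163 in OVX_E2_P4 and 197 in OVX_E2_P4_PBDE with it, which gave 0.866 (0.794 to 0.943) without PBDEs and 1.29 (1.18 to 1.39) with them. The levels with progesterone lay within the range of those without it. In the *Pi16* clusters the ratios were 1.03 (0.918 to 1.17) and 1.36 (1.22 to 1.51), and in the other fibroblast clusters 0.672 (0.592 to 0.762) and 1.09 (0.961 to 1.24).

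*Errfi1* (ENSMUSG00000028967, chromosome 4, 150853919 to 150868892, plus strand) encodes MIG-6, an inhibitor of EGFR family kinases that progesterone induces in the uterus. In fibroblast-like cells it had 1405 CPM in OVX, 978 in OVX_E2 and 1029 in OVX_E2_PBDE without progesterone, and 979 in OVX_E2_P4 and 1045 in OVX_E2_P4_PBDE with it. The 4 libraries with 17β-estradiol were nearly level, and the progesterone ratios were 1.00 (0.966 to 1.04) and 1.02 (0.981 to 1.05). Within the split of clusters the ratios were less even, at 1.17 (1.12 to 1.21) and 1.03, whose interval spanned 1, in the *Pi16* clusters and at 0.894 (0.818 to 0.978) and 1.44 (1.33 to 1.55) in the others. L-Alv-like cells had 924, 815, 890.0 and 824 CPM in the 4 libraries from OVX_E2 on, with ratios of 0.963 (0.914 to 1.01) and 1.01 (0.936 to 1.09).

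Of the 4 types compared, L-Hor-like cells had the least *Errfi1* and the widest difference between its progesterone ratios. The levels were 545 CPM in OVX, 254 in OVX_E2 and 196 in OVX_E2_PBDE without progesterone, and 355 in OVX_E2_P4 and 182 in OVX_E2_P4_PBDE with it. The ratio was 1.40 (1.30 to 1.49) without PBDEs and 0.928 (0.845 to 1.02) with them. Without PBDEs, L-Alv markers in the L-Hor-like cells were also higher with progesterone, at 240 CPM in OVX_E2_P4 against 78.8 in OVX_E2. With PBDEs they were 112 CPM in OVX_E2_P4_PBDE against 95.7 in OVX_E2_PBDE, where *Errfi1* was not higher. OVX, with the most *Errfi1*, had 153 CPM of these markers. Their part in the ratios was not tested. When multiplet clusters were kept, the ratios were 1.00 and 1.32, and when the cells with the highest Scrublet scores were removed in their place they were 1.10 and 1.35. Which of the comparisons showed the higher ratio therefore depended on how multiplets were treated. Kept multiplet clusters were added to the libraries unevenly. L-Hor-like cells went from 478 to 849 in OVX_E2 and from 760 to 1010 in OVX_E2_P4. With PBDEs they went from 608 to 878 in OVX_E2_PBDE and from 592 to 1097 in OVX_E2_P4_PBDE. The added clusters also held L-Alv markers, and their part in these ratios was not tested. In basal-like cells *Errfi1* had 1822 CPM in OVX, 719 in OVX_E2 and 689 in OVX_E2_PBDE without progesterone, and 676 in OVX_E2_P4 and 866 in OVX_E2_P4_PBDE with it, with ratios of 0.941 (0.853 to 1.04) and 1.26 (1.14 to 1.38).

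The receptors themselves were spread unevenly over the cell types. *Pgr*, the progesterone receptor, had 122 to 149 CPM in L-Hor-like cells, against 6.59 to 17.2 in L-Alv-like, 7.40 to 41.1 in basal-like and 2.69 to 16.0 in fibroblast-like cells. The 2 highest basal levels, 27.2 and 41.1 CPM, were those of the libraries whose basal-like cells held luminal markers, and *Pgr* in fibroblast-like cells was highest in the 2 libraries with progesterone, where the epithelial markers in these cells were also highest. These summed to 939 and 674 CPM with progesterone and 227 to 568 CPM without it. *Nr3c1*, the glucocorticoid receptor, had 70.7 to 95.1 CPM in fibroblast-like cells, 24.7 to 43.2 in basal-like, 26.4 to 33.2 in L-Alv-like and 10.7 to 22.0 in L-Hor-like cells. The type with the most *Pgr* thus had the least *Nr3c1*. *Nr3c2*, the mineralocorticoid receptor, had 14.1 CPM or less in every type. *Hsd11b1*, whose enzyme regenerates active corticosterone, had 73.8 to 174 CPM in fibroblast-like cells, highest in OVX, while *Hsd11b2*, whose enzyme inactivates it, had at most 4.10 CPM.

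**Figure D3:**
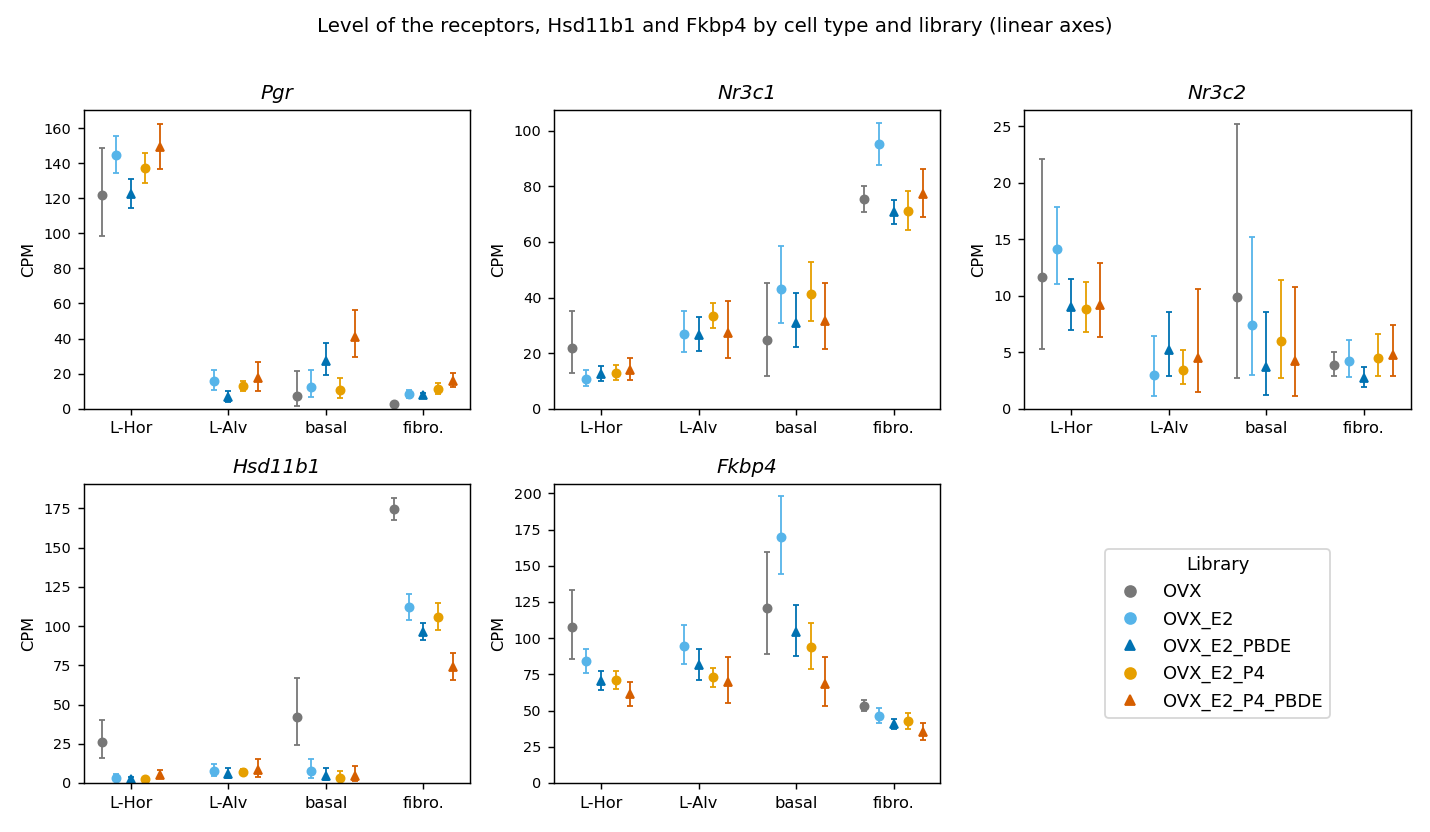
Level (CPM, linear axes) of *Pgr*, *Nr3c1*, *Nr3c2*, *Hsd11b1* and *Fkbp4* in the 4 cell types, 1 point per library with its exact 95% Poisson interval. *Pgr* is concentrated in L-Hor-like cells, and *Nr3c1* and *Hsd11b1* in fibroblast-like cells.

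Of the 11 receptors, chaperones and corticosterone enzymes, 0 were called with progesterone in L-Hor-like, L-Alv-like or fibroblast-like cells, where 9, 6 and 10 reached the UMI minimum. In basal-like cells 1 of 6 was lower, against 0.532% of all genes tested. This was *Fkbp4*, whose product FKBP52 assists receptor activation where FKBP51 opposes it. It went from 169.6 to 93.8 CPM without PBDEs and from 104 to 68.4 CPM with them, ratios of 0.553 (0.438 to 0.698) and 0.657 (0.482 to 0.887). OVX, also without progesterone, had 121 CPM, so OVX_E2 was the highest library. With a 5% mitochondrial limit OVX_E2_P4 had 70 basal-like cells in place of 147, and the ratios given are those at the 10% limit. The basal ratio of *Fkbp5* rested on 2 to 9 UMIs a library and cannot be set beside that of *Fkbp4*.

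Among 20 other genes known to be induced by glucocorticoids, 12 reached the minimum in L-Alv-like cells. Of these, 2 were higher with progesterone, against 0.478% of all genes tested. *Cebpb*, a transcription factor needed for alveolar development, had 902 CPM in OVX_E2_P4 against 259 in OVX_E2, and 1056 CPM in OVX_E2_P4_PBDE against 631 in OVX_E2_PBDE. Its ratios were 3.48 (3.19 to 3.81) and 1.67 (1.55 to 1.80). The 2 levels of *Cebpb* without progesterone, 259 and 631 CPM, also lay far apart. *Arrdc3*, an arrestin-like adaptor, had 30.7 against 18.2 and 37.2 against 24.3 CPM, ratios of 1.69 (1.19 to 2.47) and 1.53 (1.01 to 2.28). Hematopoietic markers in L-Alv-like cells summed to 60.9 CPM in OVX_E2_P4 against 71.2 in OVX_E2, and to 225 CPM in OVX_E2_P4_PBDE against 109 in OVX_E2_PBDE. Their part in these ratios was not tested. In the other 3 types 0 of 12 to 16 genes of the list were called. The list's median ratio in L-Alv-like cells was 1.19 without PBDEs and 0.971 with them, beside 0.931 and 0.995 over all genes.

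The remaining lists gave few calls, beside 0.532% of all genes lower in basal-like cells and 1.29% higher in fibroblast-like cells. Of 8 genes known to be induced by progesterone in the mammary gland, 3 reached the minimum in L-Hor-like, 1 in L-Alv-like, 3 in basal-like and 4 in fibroblast-like cells. Of these 0 were called, beside 0.663% of all genes higher in L-Hor-like cells. The list holds *Tnfsf11* (RANKL) and *Wnt4*, but these counts do not show whether either reached the minimum. Of 16 clock genes, 6 to 14 reached it and 0 were called. Of 9 paralogs of the members, 5 to 8 reached it, and the call was again *Fkbp4* in basal-like cells. Of 21 dissociation stress and immediate early genes, all reached it, and 1 was lower in basal-like cells, *Socs3*, a feedback inhibitor of cytokine signalling, with 422 against 692 and 207 against 361 CPM. Of 9 targets and partners of SGK1 and MIG-6, 2 to 6 reached it, and 1 was higher in fibroblast-like cells, *Erbb3*, with 5.71 against 2.71 and 5.73 against 2.18 CPM. *Erbb3* is a luminal gene, and the epithelial markers in fibroblast-like cells were also higher with progesterone, at 939 against 568 and 674 against 436 CPM. Their part in its ratio was not tested.

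Several members differed more between OVX and OVX_E2 than with progesterone. *Errfi1* was lower with 17β-estradiol in L-Hor-like cells, with a ratio of 0.467 (0.418 to 0.522), and in basal-like cells, with 0.394 (0.355 to 0.438). *Sgk1* in basal-like cells had 0.352 (0.287 to 0.432) and *Tsc22d3* in fibroblast-like cells 0.475 (0.411 to 0.548). At least 1.5 times lower in OVX_E2 were 3 of the 5 members with 50 UMIs over both libraries in L-Hor-like cells (*Per1*, *Klf9* and *Errfi1*), against 24.1% of all genes, and the interval of *Per1*, 0.345 to 1.17, spanned 1. In basal-like cells it was 3 of 3 (*Klf9*, *Sgk1* and *Errfi1*), against 21.7%, although *Klf9* was not past 1.5 times there with a 5% mitochondrial limit, Scrublet calls, equal weight of cells or scaling by the median ratio. In fibroblast-like cells it was 1 of 7 (*Tsc22d3*), against 5.32%. No member was 1.5 times higher, against 6.76%, 17.4% and 8.18% of genes in the 3 types. The largest ratio, 1.32 (1.10 to 1.58), was that of *Per1* in fibroblast-like cells.

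Other measures moved along with these differences. The median ratio of all genes was 0.850 in L-Hor-like cells, and relative to it *Errfi1* had 0.549 and *Klf9* 0.725. Dissociation stress and immediate early genes summed to 12638 CPM in OVX and 9431 in OVX_E2 in L-Hor-like cells, 21565 and 10765 in basal-like cells, and 20110 and 14948 in fibroblast-like cells. Fibroblast markers in the epithelial types were also higher in OVX, at 2570 against 1702 CPM in L-Hor-like and 2731 against 1321 CPM in basal-like cells. The part of either in the ratios was not tested. OVX gave 92 L-Hor-like and 60 basal-like cells, and when multiplet clusters were kept the ratio of *Errfi1* in L-Hor-like cells was 0.741. That setting changed only OVX_E2, from 478 to 849 L-Hor-like cells. OVX stayed at 92, since its mixed luminal cluster was then counted as L-Alv-like.

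**Figure D4:**
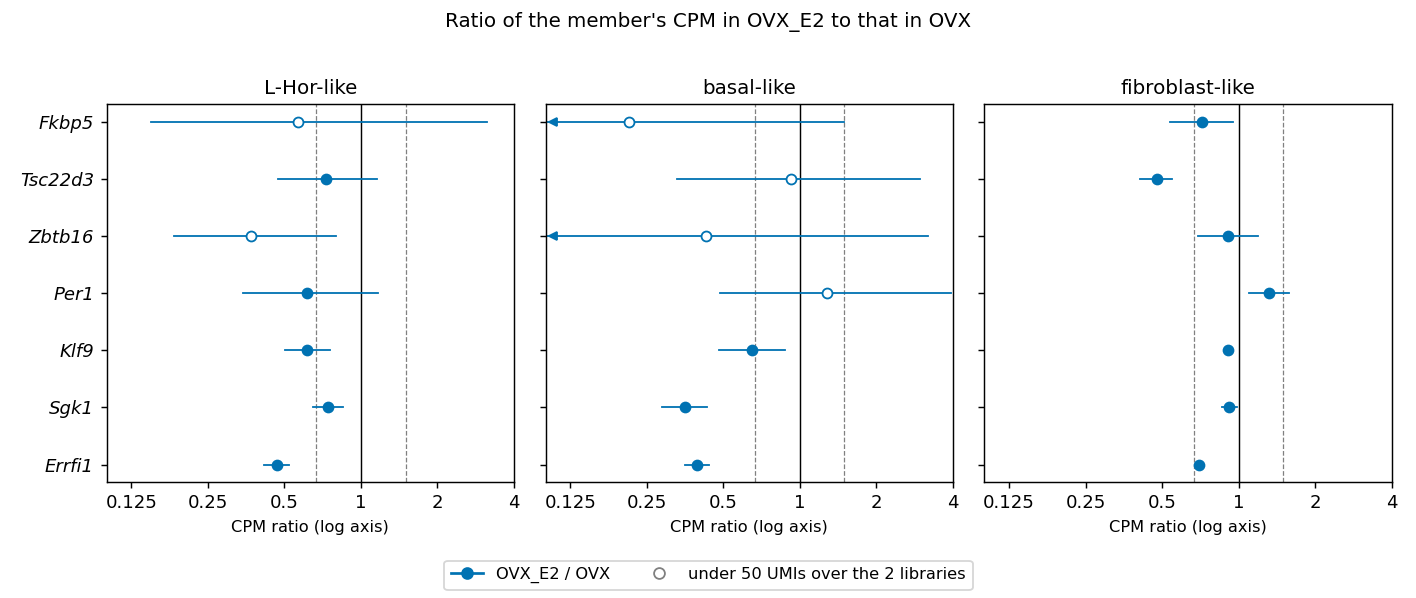
Ratio of each gene's CPM in OVX_E2 to that in OVX (log axis) in the 3 cell types found in both libraries, with exact 95% intervals, where arrowheads mark intervals that run past the axis. Dashed lines mark 1.5 times higher and lower, and open symbols mark genes under 50 UMIs. *Errfi1* in L-Hor-like cells, *Sgk1* and *Errfi1* in basal-like cells and *Tsc22d3* in fibroblast-like cells lie farthest left among the filled symbols of their panels.

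The libraries with PBDEs were set beside those without, in comparisons that share libraries with those above. The median ratio of all genes was 0.883 to 0.955, and ratios are given relative to it. *Sgk1* stood in L-Hor-like cells at 0.912 without and 0.917 with progesterone, in the L-Alv-like at 0.935 and 0.780, in basal-like cells at 1.13 and 1.25, and at 0.914 and 1.29 in fibroblast-like cells. The unscaled basal ratios, 0.998 (0.821 to 1.22) and 1.15 (0.948 to 1.40), both spanned 1, and the basal-like cells of the libraries with PBDEs held luminal markers. *Errfi1* in L-Hor-like cells stood at 0.858 without and 0.553 with progesterone, the latter from an unscaled ratio of 0.513 (0.470 to 0.559). The progesterone ratios of *Errfi1* in these cells depended on how multiplets were treated, as given above. *Tsc22d3* in fibroblast-like cells stood at 0.812 and 0.815. *Klf9* stood at 1.01 and 0.647 in L-Hor-like cells, and at 1.11 and 0.900 in fibroblast-like cells.

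Levels over the 19 combinations of type and library, as log2(CPM + 1) less the mean of the type, were used to find the genes most like each member among 11175 genes with at least 200 UMIs. The points share libraries and depth, and OVX is the extreme library in several of them, so the values are descriptions. The nearest gene was *Nipal2* for *Sgk1* (Pearson r = 0.976), *Rbm12* for *Zbtb16* (0.939), *Herpud1* for *Errfi1* (0.939), *Mycbp2* for *Klf9* (0.928), *Magi3* for *Fkbp5* (0.908), *Elmsan1* for *Per1* (0.827) and *Tle1* for *Tsc22d3* (0.825). Among the members, *Sgk1* and *Errfi1* were the most alike (0.856), followed by *Klf9* and *Errfi1* (0.760), while *Per1* and *Sgk1* had 0.0508.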

How the data were processed

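The authors aligned the reads to the mouse genome mm10 and counted UMIs with Cell Ranger 2.0.0, and they deposited raw UMI counts per gene and called barcode, without normalization. A minimum of 500 genes and 1000 UMIs and a limit of 10% mitochondrial UMIs kept 14317 of 14344 barcodes. The libraries were clustered separately in Seurat 5.3.0 (R 4.3.3; 2000 variable genes, 10 principal components, resolution 0.3 for OVX and 0.5 for the others). The 95 genes of the lists were held out of the variable genes. Clusters were named from 61 markers, and clusters resembling mixtures of 2 others, with raised UMIs and Scrublet scores (scanpy 1.11.5), were set aside as putative multiplets. Limits of the naming were set after clusters had been seen. Counts were summed per type and library, and exact Poisson and conditional binomial intervals came from scipy 1.17.1. Totals and intervals cover counting error only.

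Genes were named by rule: all 7 members, the main receptors, genes of each list past 1.5 times in both progesterone comparisons (at most 5 per list and type), and the genes most like each member. The members and lists were chosen with earlier results of these data known. *Cebpd*, in the list of glucocorticoid-induced genes, was not analysed here. The values of 1 gene of the receptor list are not reported here. Gene positions are from GENCODE M21 (GRCm38, the sequence of mm10). The call rule and intervals were tested on simulated Poisson counts. These held no spread between libraries or animals, so they cannot show how the calls or intervals behave under it. Alternatives were a 5% mitochondrial limit, multiplet clusters kept, Scrublet calls (the top 20% of scores) in their place, resolution 1.0, equal weight of cells, scaling by the median ratio, and other UMI minimums (20 and none).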

Additional observations from a re-analysis of the deposited data

Results flagged for a closer look

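*Sgk1* in fibroblast-like cells had progesterone ratios on opposite sides of 1, each with a counting interval that left out 1, at 0.866 without PBDEs and 1.29 with them. The difference between the ratios was not tested, since each group had 1 library. Over the alternatives the first ran from 0.858 to 0.907 and the second from 1.28 to 1.32. Split by cluster, the ratios were 1.03 (0.918 to 1.17) and 1.36 (1.22 to 1.51) in the *Pi16* clusters. The other fibroblast clusters had 0.672 (0.592 to 0.762) and 1.09 (0.961 to 1.24). Neither part thus had both intervals leave out 1.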

How the results depend on the processing

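No paired analysis was possible because each group had 1 library, and for the same reason no library could be left out of a group. Under 8 alternatives and 1 added after seeing the data, without stress genes in the totals, 0 members were 1.5 times higher or lower in both progesterone comparisons in any type. Of 392 recomputed member ratios, 372 stayed within the counting interval of the value given, 19 moved and 1 turned. The last was that of *Zbtb16* in basal-like cells with PBDEs, which was 0.574 as given and 1.85 with equal weight of cells, from 2 and 5 UMIs. It went from past 1.5 times lower to past 1.5 times higher, although 1.85 lay within its counting interval, 0.0546 to 3.505. A change of side of 1 was not by itself counted as a turn, and several other ratios lay on both sides of 1. In L-Hor-like cells *Errfi1* with PBDEs ran from 0.928 to 1.35, and *Fkbp5* without PBDEs from 0.597 to 1.37. Members below all libraries without progesterone in L-Hor-like cells numbered 0 with Scrublet calls and 1 (*Tsc22d3*) with equal weight of cells, in place of 2, and in basal-like cells 2 with Scrublet calls (*Klf9* and *Sgk1*), in place of 1. With equal weight of cells 1 member, *Per1*, lay above all in L-Alv-like cells, in place of 0. Members lower in OVX_E2 than in OVX numbered 1 in L-Hor-like cells after scaling by the median ratio, and 5 in L-Hor-like and 5 in basal-like cells without a UMI minimum, in place of 3 in each. In basal-like cells they numbered 2, *Klf9* being lost, with a 5% mitochondrial limit, Scrublet calls, equal weight of cells or scaling by the median ratio. In L-Hor-like cells they were *Tsc22d3*, *Zbtb16*, *Klf9* and *Sgk1* with multiplet clusters kept, and *Zbtb16*, *Klf9*, *Sgk1* and *Errfi1* with Scrublet calls. The ratios of *Klf9* ran from 0.749 to 0.787 and from 0.638 to 0.649 in fibroblast-like cells. *Fkbp5* and *Zbtb16* are limited by depth in the epithelial types.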
